A study of Mus musculus with 71 samples.

Results

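MHC class II presentation genes are described here across the 6 labelled groups of a mouse study of systemic sclerosis. The members are 10 genes taken by symbol: H2-Aa, H2-Ab1, H2-Eb1, Cd74, H2-DMa, H2-DMb1, H2-DMb2, H2-Oa, H2-Ob and Ciita. All 10 are among the 10508 genes of the vst table, in which variance-stabilised counts stand on a log2-like scale, and among the 55416 genes of the count table. No member was lost to the filter on low expression.

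Whole blood was taken from 71 mice at the end of a model in which intradermal hypochlorous acid (HOCl) induces fibrosis and inflammation, and polyadenylated RNA was sequenced after globin depletion. Ctrl mice (n = 11) received PBS. HOCl mice (n = 12) received HOCl on 5 days per week for 6 weeks, and D11 and E07 mice (n = 12 each) received HOCl together with the anti-galectin-3 monoclonal antibody (mAb) of that name at 20 mg/kg every 5 days. These animals were female BALB/c AnNRj mice, 6 weeks old at the start. D06 and BPR21 mice (n = 12 each) are labelled as HOCl-induced and treated with the agent of that name, and what these agents are, their dose and the age of these mice are not separately given in the sources used here. The genotype label reads HOCL for all samples, Ctrl included, so the group was taken from the sample title. The study bred its control and experimental groups in separate cages, so cage and group cannot be told apart among Ctrl, HOCl, D11 and E07 mice. The caging of D06 and BPR21 mice is not separately given in the sources used here. HOCl mouse 8 has counts and no vst values, so n is 11 for HOCl in vst values and 12 in counts.

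Class II molecules are heterodimers of an alpha and a beta chain that present peptides from endocytosed proteins to CD4+ T cells. The invariant chain CD74 escorts newly made heterodimers to endosomes, where DM exchanges its remnant for peptide and DO restrains DM. In blood, B cells, monocytes and dendritic cells carry these molecules, and the coactivator CIITA switches the genes on through factors bound at the X and Y boxes of their promoters.

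Total counts ranged from 11932855 to 15948972 per mouse (median 13719277). Ctrl mice had 12909228 to 15861471, HOCl mice 11932855 to 15222080, D11 mice 12295725 to 14929266, E07 mice 12696749 to 14474204, D06 mice 12427021 to 15948972 and BPR21 mice 12241849 to 14933401 counts. No 2 of the 71 libraries held identical counts, and the highest Pearson r of log2 counts between mice of 1 group was 0.953. Over all genes of the vst table, 5 libraries stood apart from the rest, with a median r with the other libraries under 0.94 against a median of 0.964: BPR21 mice 11 and 12 (0.925 and 0.929), D06 mouse 5 (0.928), D11 mouse 10 (0.930) and HOCl mouse 7 (0.933). Member counts are given with and without these 5 where the count changed. A different library, D06 mouse 8, was low in some genes of the H2 region. Its H2-Aa vst value was 11.40 against 12.06 to 13.43 in the other 11 D06 mice, and that of H2-K1, a class I gene chosen once its values had been seen, was 11.48 against 12.96 to 13.45. Its Cd74 value of 14.07 lay inside the range of the other D06 mice.

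The genes lie at chr17:34311314-34314328 (H2-Oa), chr17:34338515-34358958 (H2-DMa), chr17:34362197-34370529 (H2-DMb2), chr17:34372046-34379204 (H2-DMb1), chr17:34457836-34473388 (H2-Ob), chr17:34476663-34488393 (H2-Ab1), chr17:34493404-34506798 (H2-Aa) and chr17:34504236-34535648 (H2-Eb1) on GRCm39, all inside the H2 complex, with Ciita at chr16:10297923-10347694. Cd74 lies on a further chromosome. H2-Aa is on the minus strand and its start overlaps H2-Eb1 on the plus strand. Libraries were strand-specific, but the strand setting of the counting is not given in the sources used here, so reads of the shared stretch are uncertain for both genes. H2-DMb1 and H2-DMb2 encode closely related beta chains of DM. They share 254 words of 75 bases, 19.1% of those of the H2-DMb1 and 18.3% of those of the H2-DMb2 canonical transcript, so counts of this pair are uncertain too. The remaining pairs of members share 0 such words.

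The promoters of the members were searched for the boxes through which CIITA acts. The members varied together from mouse to mouse, as given further on, and a link of that variation to the boxes was not tested. In the 250 bases before the start of the canonical GENCODE vM39 transcript, the X box was searched as a consensus of 14 letters, some of them free, and the Y box as ATTGG, on both strands, in 21770 promoters. The X box letters were in 227 promoters (1.04%), 3 of them members (H2-Ab1, H2-Ob and Cd74). The Y box letters were in 7946 (36.5%), 7 of them members. An X box followed by a Y box 10 to 30 bases on was found in 6 promoters (0.0276%), those of H2-Ab1, H2-Ob, Aptx, Btn2a2, Ccdc80 and Tcam1. With at most 1 letter of the X box different, a search added after that result was seen, the pair was in 98 promoters (0.450%), and H2-DMa, H2-DMb2 and H2-Eb1 joined the members that hold it. The windows below read in the direction of the gene, with the box letters in capitals. The spacing between their 2 boxes was limited to 10 to 30 bases by the search itself. The X boxes of H2-Eb1 (at the first letter) and H2-DMb2 (at the fifth) hold 1 letter that differs from the consensus. H2-Aa is shown for its Y box, since no X box match, even with 1 letter different, preceded it.
H2-Ab1: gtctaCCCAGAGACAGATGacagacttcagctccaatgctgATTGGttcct
H2-Ob: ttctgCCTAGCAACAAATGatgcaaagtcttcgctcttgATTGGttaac
H2-Eb1: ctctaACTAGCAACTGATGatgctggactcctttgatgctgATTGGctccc
H2-DMb2: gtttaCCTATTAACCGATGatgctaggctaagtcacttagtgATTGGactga
H2-Aa: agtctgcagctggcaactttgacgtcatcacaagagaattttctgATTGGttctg
They lie at chr17:34482115-34482165, chr17:34457783-34457831, chr17:34524741-34524791 and chr17:34364091-34364142 on the plus strand and at chr17:34506836-34506890 on the minus strand of GRCm39, upstream of the canonical start and outside every annotated exon and untranslated region. The H2-Ob window lies in no annotated gene, those of H2-Ab1, H2-Eb1 and H2-DMb2 lie in introns of longer transcripts of the same gene, that of H2-Eb1 also inside the span of Gm20513, and that of H2-Aa in an intron of H2-Eb1. The 2 boxes are 22, 20, 22 and 23 bases apart in H2-Ab1, H2-Ob, H2-Eb1 and H2-DMb2, and 23 in H2-DMa, whose window overlaps an annotated exon and is not shown. For H2-DMb1, H2-Oa and Ciita neither box was found in this window, which says only that these letters are absent there. A match is a run of letters, and binding was not measured.

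Cd74 gave the most RNA per length. Its median over all mice was 621 CPM (the count as a share of the library's total) per kb of exon. H2-Ab1, H2-Aa and H2-Eb1, chains of the peptide-binding heterodimers, followed at 164, 151 and 101. In D06 mice H2-Aa stood above H2-Ab1 (112 against 110). Chains of DM and DO were lower on that scale, at 62.4 for H2-DMb2 and 17.5 to 21.3 for H2-Oa, H2-Ob, H2-DMb1 and H2-DMa, whose order differed between groups. Length here joins the exons of all transcripts of a gene. Ciita, the regulator, was lowest at 4.35. Raw counts per mouse ran from 3789 to 44169 for Cd74 and from 54 to 1479 for H2-Oa, the member with the lowest count in any mouse. Median raw counts over all mice were 9273 for H2-Aa and 5723 for H2-Ab1, the reverse of their order per length. BALB/c mice carry the d haplotype of H2, whereas the reference genome carries b, and the part of this difference in the levels per gene was not tested. H2-Ea, silenced by a deletion in b and active in d, was counted in every mouse, with medians of 7149 counts in Ctrl and 9036 in E07 mice.

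**Figure D1:**
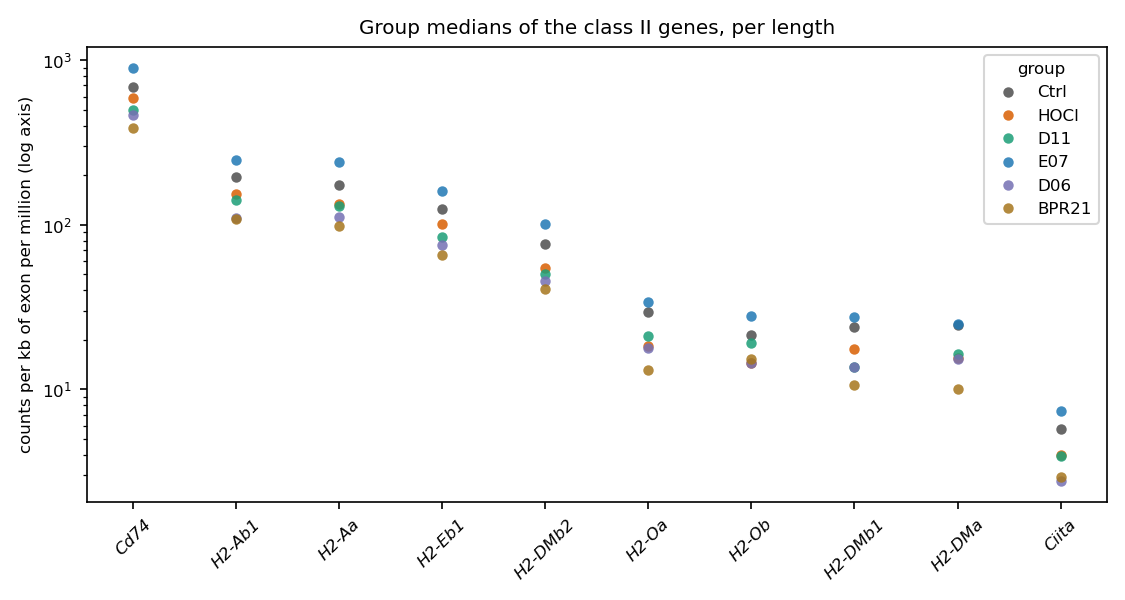
Group medians of the class II genes in CPM per kb of exon, on a log axis, with 1 point per group and gene. Cd74 stands highest and Ciita lowest in every group.

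The members shared the ends of their group order. E07 mice had the highest mean vst value and BPR21 mice the lowest in 10 of 10 members. Ctrl came next to E07 in 7, D06 stood next to lowest in 9, and HOCl and D11 changed places between members. Neighbouring groups in that order were not separated: none of the 50 neighbour pairs was called, and the lowest FDR between neighbours was 0.0602, for H2-DMb1. Of all genes, 0% (D06 against D11) to 7.89% (E07 against HOCl) were called in these comparisons, with 0.00952% in E07 against Ctrl mice. Where few genes were called at all, the absence of a call says little about the members. All groups overlapped pairwise in every member, in 150 of 150 pairs of member and comparison, and the share of overlap over all genes is not given here. The SD of the members' mean vst was 0.62 in BPR21 mice, the widest, and 0.23 in E07 mice, the narrowest. That mean was 9.51 to 11.33 in BPR21 mice, lowest in mouse 11, and 11.08 to 11.72 in E07 mice.

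**Figure D2:**
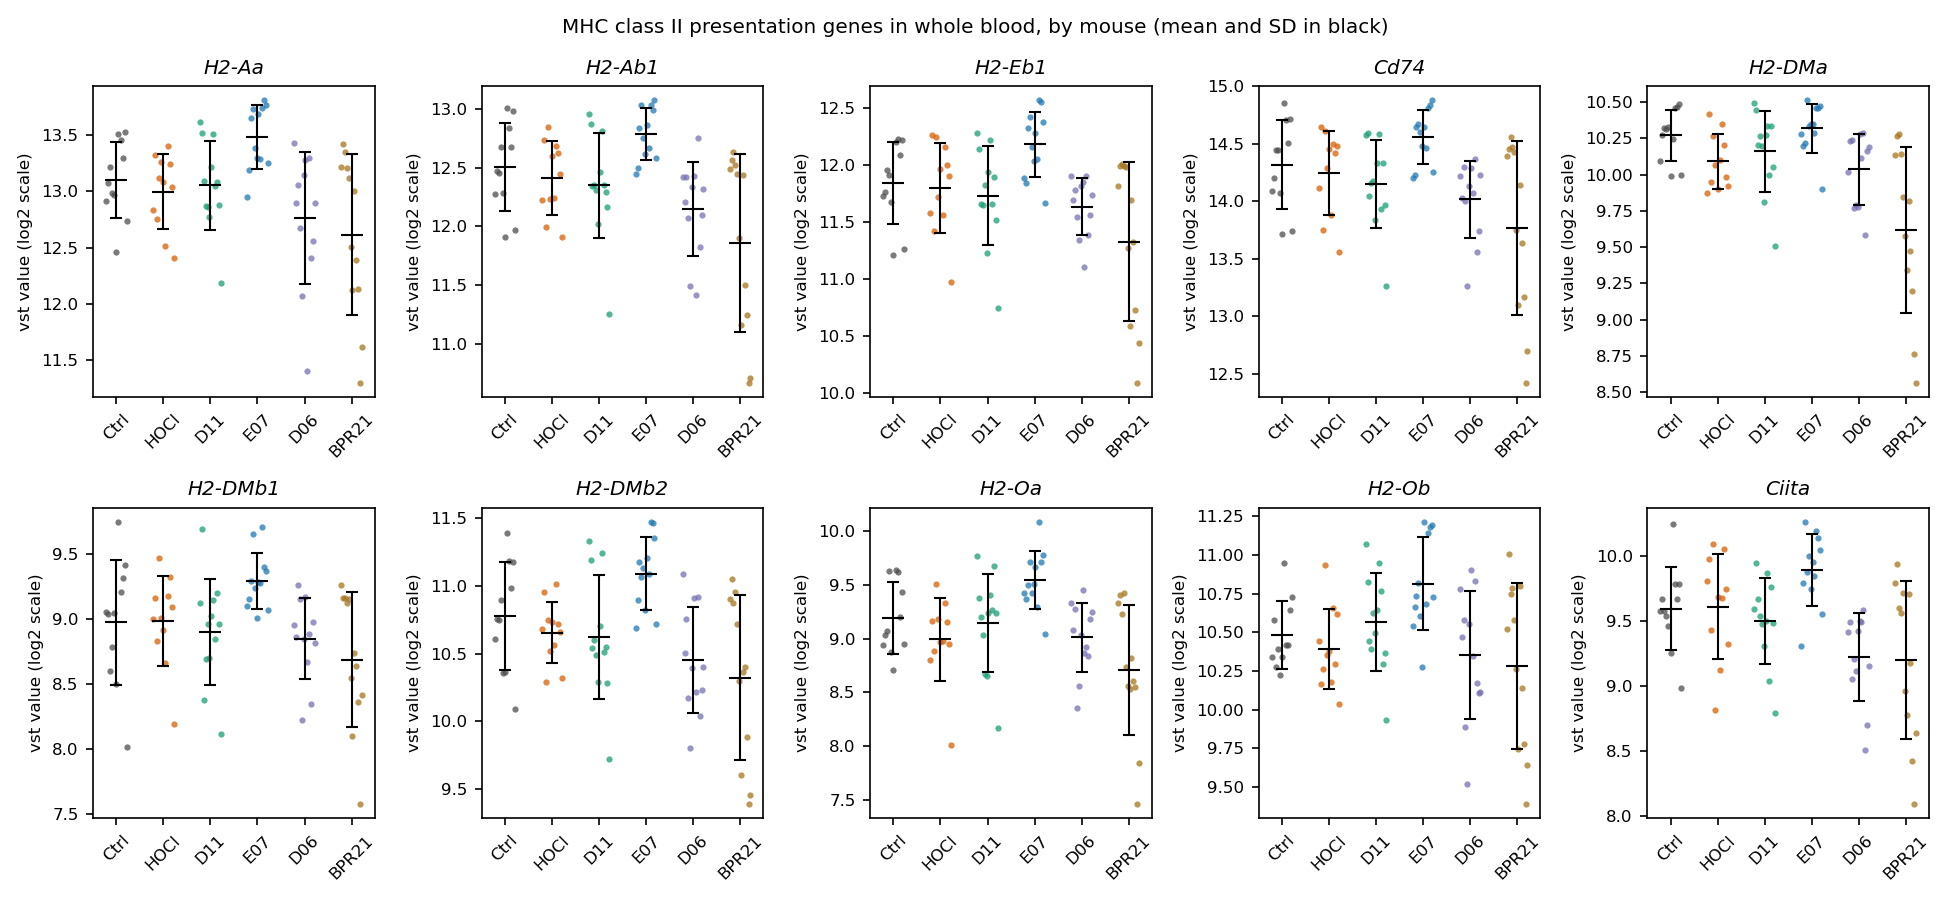
Each panel shows 1 gene and each point 1 mouse, as vst value on the log2 scale, with the mean and SD of the group in black. E07 mice sit highest on average and BPR21 mice lowest, and the groups overlap in every panel.

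H2-Aa and H2-Ab1 encode the alpha and beta chains of I-A. H2-Aa vst values were 12.46 to 13.53 (median 13.08) in Ctrl, 12.41 to 13.41 (median 13.08) in HOCl, 12.18 to 13.62 (median 13.07) in D11, 12.95 to 13.81 (median 13.52) in E07, 11.40 to 13.43 (median 12.90) in D06 and 11.30 to 13.42 (median 12.75) in BPR21 mice. E07 mice were high, with 11 of 12 above the HOCl median, and the ranges overlapped throughout. H2-Aa rose in E07 against HOCl mice (log2 difference 0.48, SE 0.121, FDR 0.00744). H2-Ab1 vst values were 11.91 to 13.01 (median 12.47) in Ctrl, 11.91 to 12.85 (median 12.45) in HOCl, 11.25 to 12.96 (median 12.35) in D11, 12.45 to 13.08 (median 12.80) in E07, 11.42 to 12.76 (median 12.27) in D06 and 10.67 to 12.64 (median 12.17) in BPR21 mice. E07 mice were again high, and 11 of 12 D06 mice lay under the lowest E07 value. H2-Ab1 missed the fold-change threshold of 1.3 in E07 against HOCl mice (log2 difference 0.37, SE 0.108, FDR 0.0194), whose log2 is 0.379. With 1 mouse left out, that difference was 0.32 to 0.42, and its call changed in 10 of 23 fits. H2-Ab1 fell in D06 against E07 mice (log2 difference -0.64, SE 0.124, FDR 0.000505).

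H2-Eb1 encodes the beta chain of I-E. H2-Eb1 vst values were 11.21 to 12.22 (median 11.91) in Ctrl, 10.98 to 12.27 (median 11.91) in HOCl, 10.74 to 12.28 (median 11.74) in D11, 11.67 to 12.57 (median 12.22) in E07, 11.11 to 11.90 (median 11.72) in D06 and 10.09 to 12.01 (median 11.51) in BPR21 mice. The E07 range reached highest and the BPR21 range lowest, with overlap between all groups. H2-Eb1 did not pass in E07 against HOCl mice (log2 difference 0.38, SE 0.132, FDR 0.0506) and fell in D06 against E07 mice (log2 difference -0.54, SE 0.108, FDR 0.000568). In E07 against HOCl mice its call changed in 8 of 23 fits with 1 mouse left out.

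Cd74 encodes the invariant chain. Cd74 vst values were 13.72 to 14.86 (median 14.44) in Ctrl, 13.55 to 14.64 (median 14.42) in HOCl, 13.26 to 14.60 (median 14.16) in D11, 14.20 to 14.88 (median 14.62) in E07, 13.27 to 14.37 (median 14.10) in D06 and 12.42 to 14.56 (median 13.95) in BPR21 mice. BPR21 mice 11 and 12 were low, and E07 mice were close together. Cd74 did not pass in E07 against HOCl mice (log2 difference 0.31, SE 0.120, FDR 0.0775), and it was called in E07 against D11 mice (log2 difference 0.41, SE 0.122, FDR 0.0416). The latter call changed in 15 of 24 fits with 1 mouse left out, and 0 members were called there with all 6 groups in 1 fit. Cd74 fell by 0.54 on the log2 scale in D06 against E07 mice (FDR 0.00102), where 12 of 12 D06 mice lay under the E07 median.

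DM is built from the products of H2-DMa with H2-DMb1 or H2-DMb2 and loads peptide. H2-DMb2 vst values were 10.09 to 11.39 (median 10.75) in Ctrl, 10.29 to 11.01 (median 10.68) in HOCl, 9.72 to 11.33 (median 10.55) in D11, 10.69 to 11.47 (median 11.11) in E07, 9.80 to 11.08 (median 10.40) in D06 and 9.39 to 11.05 (median 10.38) in BPR21 mice. All 12 E07 mice lay above the HOCl median and 8 of them above every HOCl mouse. H2-DMb2 rose in E07 against HOCl mice (log2 difference 0.44, SE 0.101, FDR 0.00390). H2-DMa vst values were 9.99 to 10.49 (median 10.31) in Ctrl, 9.87 to 10.42 (median 10.07) in HOCl, 9.50 to 10.49 (median 10.24) in D11, 9.90 to 10.51 (median 10.34) in E07, 9.58 to 10.29 (median 10.14) in D06 and 8.57 to 10.28 (median 9.70) in BPR21 mice. Ranges of all groups overlapped, and the lowest values were in BPR21 mice. H2-DMa was the 1 member that did not pass in D06 against E07 mice, for its size (log2 difference -0.28, SE 0.0888, FDR 0.0285). In H2-DMb1 the mean was 9.29 ± 0.22 in E07, 8.98 ± 0.34 in HOCl, 8.97 ± 0.48 in Ctrl, 8.90 ± 0.41 in D11, 8.84 ± 0.31 in D06 and 8.68 ± 0.52 in BPR21 mice (SD), and its vst values ran from 7.57 to 9.75 over all mice. It did not pass in E07 against HOCl mice (log2 difference 0.31, SE 0.113, FDR 0.0602).

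DO, the inhibitor of DM, is the product of H2-Oa and H2-Ob and is found above all in B cells. H2-Oa vst values were 8.71 to 9.64 (median 9.07) in Ctrl, 8.01 to 9.51 (median 8.97) in HOCl, 8.16 to 9.77 (median 9.24) in D11, 9.04 to 10.09 (median 9.51) in E07, 8.36 to 9.45 (median 9.06) in D06 and 7.46 to 9.42 (median 8.67) in BPR21 mice. E07 mice were high, with 12 of 12 above the HOCl median, and HOCl mouse 12 was the lowest of its group. H2-Oa had the largest difference of the members in E07 against HOCl mice (log2 difference 0.55, SE 0.128, FDR 0.00426). H2-Ob vst values were 10.22 to 10.95 (median 10.42) in Ctrl, 10.04 to 10.93 (median 10.36) in HOCl, 9.93 to 11.07 (median 10.56) in D11, 10.27 to 11.22 (median 10.73) in E07, 9.52 to 10.90 (median 10.41) in D06 and 9.39 to 11.01 (median 10.39) in BPR21 mice. Its groups lay closer together, and 11 of 12 E07 mice exceeded the HOCl median. H2-Ob rose too (log2 difference 0.42, SE 0.112, FDR 0.0110).

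Ciita encodes the coactivator of the class II genes. Ciita vst values were 8.99 to 10.25 (median 9.58) in Ctrl, 8.82 to 10.09 (median 9.69) in HOCl, 8.79 to 9.94 (median 9.52) in D11, 9.31 to 10.27 (median 9.92) in E07, 8.51 to 9.59 (median 9.31) in D06 and 8.09 to 9.94 (median 9.37) in BPR21 mice. D06 mice were low, all 12 under the HOCl median, and BPR21 mice ranged widely. Ciita did not pass in E07 against HOCl mice (log2 difference 0.28, SE 0.132, FDR 0.157) or in D06 against HOCl mice (log2 difference -0.39, SE 0.145, FDR 0.245). It fell in D06 against E07 mice (log2 difference -0.67, SE 0.120, FDR 0.000196).

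Induction by HOCl was compared with PBS first. None of the 10 members was called in HOCl against Ctrl mice with limma, where 4.96% of all genes were (4.79% higher and 0.171% lower). At an unadjusted p under 0.05 there was 1 member with limma and 0 with edgeR or DESeq2, neither of which called any. Member differences were -0.20 to 0.017 on the log2 scale (median -0.091), against a median of -0.016 for all genes. H2-Oa (log2 difference -0.20, SE 0.143, FDR 0.505) and H2-DMa (log2 difference -0.18, SE 0.0841, FDR 0.265) had the lowest values, and 9 of 11 HOCl mice lay under the Ctrl median in H2-DMa. Ciita (0.017) and H2-DMb1 (0.0082) were the 2 with a positive sign, which turned in settings given below. Scaling to the total count moved the median of all genes in this comparison to -0.47. Relative to that shift the members stood at -0.26 to 0.020 (median -0.11), and 8 were called lower on the unshifted scale, where 5132 genes were lower and 327 higher.

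E07 mice were compared with HOCl mice for the effect of that mAb. Of the 10 members, 4 rose and 0 fell: H2-Aa, H2-DMb2, H2-Oa and H2-Ob. Of all genes, 7.89% were called with 0.876% higher and 7.01% lower (92 and 737 of 10508). All 10 members had a positive difference, from 0.22 to 0.55 on the log2 scale (median 0.38), beside a median of 0.022 over all genes, and the sign was positive in every alternative run. Each of the 10 had an unadjusted p under 0.05. Scaling to the total count shifted all genes by 0.49 (with 6558 called higher and 324 lower) and called 10 members, which stood 0.26 to 0.68 above the shift (median 0.40). With all 6 groups in 1 fit the count was 1, with 681 genes called. In the edgeR test, with HOCl mouse 8 included, it was 4. That mouse had 27611 counts of Cd74, 2314 CPM against 528 to 2076 in the other HOCl mice. Of the 4 called members, it lay above the other HOCl mice in H2-Aa (833 CPM against 202 to 823) and H2-Oa (54.5 against 11.0 to 38.3). It lay inside their range in H2-DMb2 (139 against 48.8 to 151) and H2-Ob (84.9 against 36.3 to 118). With the 5 libraries that stood apart left out, the count was 4, and with each mouse left out it was 4 to 6.

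**Figure D3:**
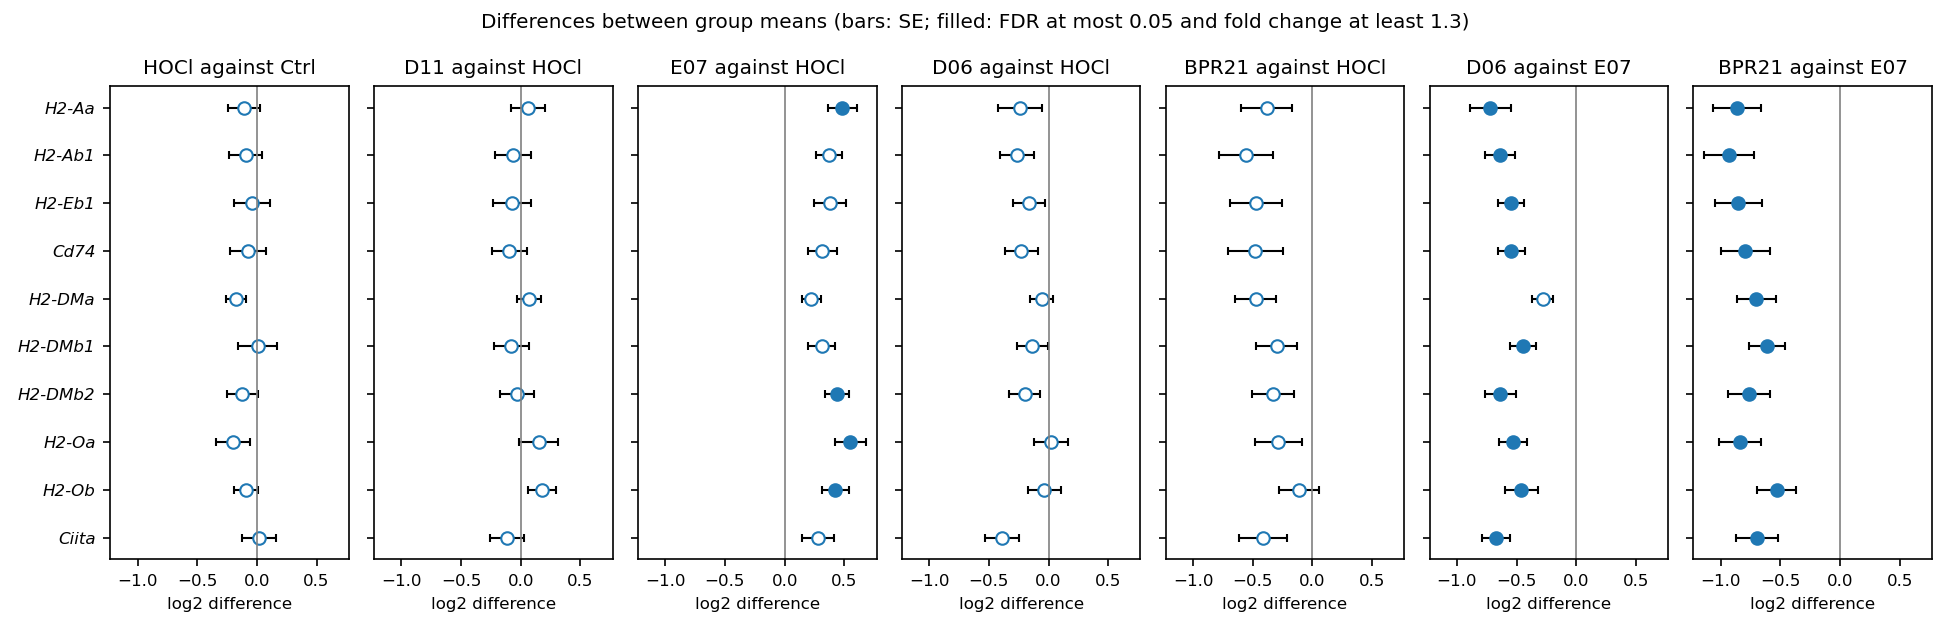
Differences between group means for each class II gene on the log2 scale, with 1 panel per comparison, SE as bars and filled points for called genes. All points lie above 0 in E07 against HOCl mice and under 0 in D06 and BPR21 against E07 mice.

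In bulk blood, fewer cells of a type and less RNA per cell cannot be told apart, and the level of each cell type's markers is therefore given beside the members. B cell markers took 0.106 to 0.351% (median 0.219%) in Ctrl, 0.0497 to 0.214% (median 0.155%) in HOCl, 0.0885 to 0.285% (median 0.159%) in D11, 0.181 to 0.382% (median 0.292%) in E07, 0.0375 to 0.189% (median 0.143%) in D06 and 0.0330 to 0.306% (median 0.127%) in BPR21 mice, with Cd79a the most abundant gene and 0 of 15 markers at a median count of 0. The class II members took 0.164 to 0.645% (median 0.376%) in Ctrl, 0.116 to 0.459% (median 0.315%) in HOCl, 0.141 to 0.505% (median 0.272%) in D11, 0.350 to 0.705% (median 0.491%) in E07, 0.0682 to 0.308% (median 0.234%) in D06 and 0.0563 to 0.471% (median 0.210%) in BPR21 mice. E07 mice were highest in both, and BPR21 mouse 11 was lowest in the mean vst of both. In E07 against HOCl mice, 10 of 15 B cell markers rose and 0 fell (median log2 difference 0.49), with Tnfrsf13c, the BAFF receptor (log2 difference 0.63, SE 0.101, FDR 0.000189), among them.

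Ratios of counts within a library do not depend on how libraries are scaled. The log2 ratio of the summed member counts to the summed B cell marker counts was 0.89 ± 0.15 in Ctrl (SD, n = 11), 1.00 ± 0.21 in HOCl, 0.78 ± 0.14 in D11, 0.84 ± 0.10 in E07, 0.80 ± 0.15 in D06 and 0.78 ± 0.11 in BPR21 mice (n = 12 each). HOCl mice had the highest mean of this ratio, where E07 mice had the highest member levels, and the groups overlapped. Over monocyte and dendritic cell markers, the ratio was 2.67 ± 0.38 in E07, 2.16 ± 0.40 in HOCl, 2.07 ± 0.39 in Ctrl, 2.24 ± 0.42 in D11, 2.02 ± 0.39 in D06 and 2.07 ± 0.86 in BPR21 mice. E07 was highest there. B cell markers over monocyte and dendritic cell markers gave 1.82 ± 0.39 in E07, 1.16 ± 0.41 in HOCl, 1.18 ± 0.43 in Ctrl, 1.46 ± 0.40 in D11, 1.22 ± 0.42 in D06 and 1.29 ± 0.93 in BPR21 mice. These ratios are descriptions and were not tested.

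**Figure D4:**
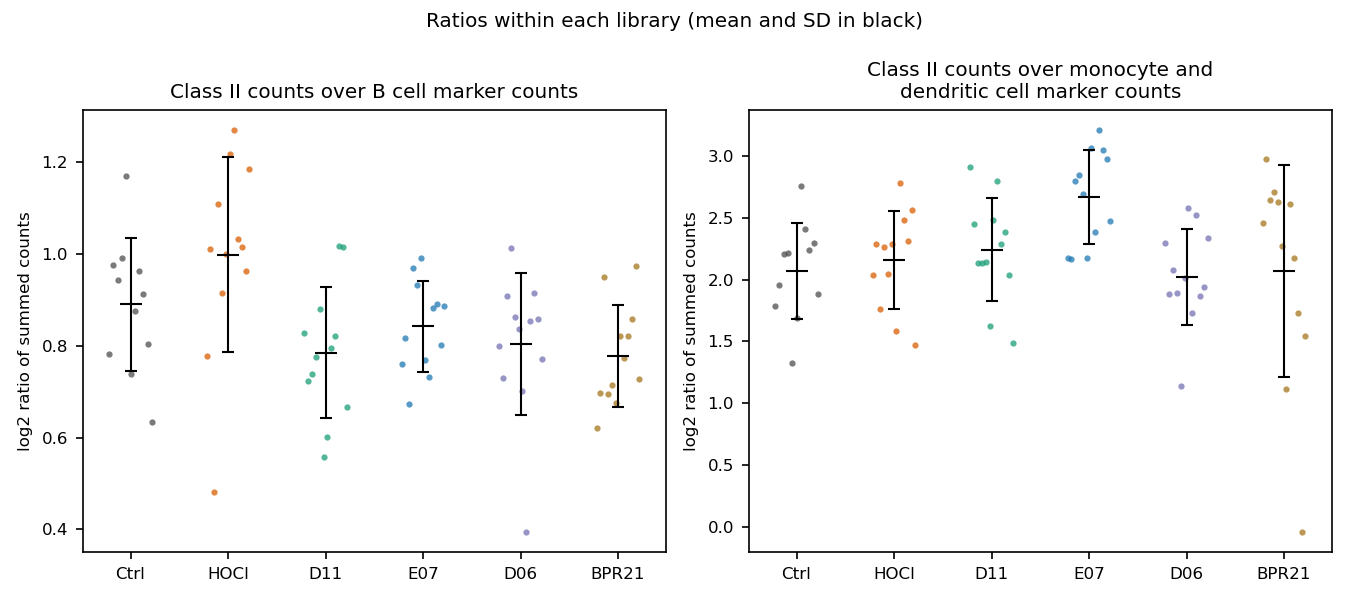
Log2 ratio of summed class II counts to summed B cell marker counts (left) and to summed monocyte and dendritic cell marker counts (right), 1 point per mouse, mean and SD in black. On the left the group means lie between 0.78 and 1.00, and on the right E07 mice have the highest mean.

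Single members differed in this ratio. For Cd74 the mean log2 ratio to B cell markers was -0.22 in Ctrl, -0.091 in HOCl, -0.37 in D11, -0.32 in E07, -0.31 in D06 and -0.34 in BPR21 mice. H2-DMa, whose difference in E07 against HOCl mice was the smallest of the members, had -4.42 in Ctrl, -4.43 in HOCl, -4.52 in D11, -4.71 in E07, -4.47 in D06 and -4.75 in BPR21 mice. H2-Oa had -5.70 in Ctrl, -5.74 in HOCl, -5.75 in D11, -5.60 in E07, -5.71 in D06 and -5.95 in BPR21 mice. H2-Oa over H2-DMa was -1.28 in Ctrl, -1.31 in HOCl, -1.23 in D11, -0.89 in E07, -1.24 in D06 and -1.20 in BPR21 mice, with an SD of 0.19 in E07 and 0.44 in HOCl mice (n = 12 each).

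Within groups, the members varied together. Over the 70 mice of the vst table, after each group's mean was subtracted, Pearson r between 2 members was 0.63 (Ciita with H2-Oa) to 0.95 (H2-Eb1 with H2-Ab1), with a median of 0.81 over 45 pairs. Without the BPR21 group (58 mice) the median was 0.73. The 9 other genes most like the members' mean z-score were Ighd (0.96), Cd22 (0.95), Fcmr (0.95), Fcer2a (0.94), Cd79a (0.93), Cd79b (0.92), Bank1 (0.90), Cxcr5 (0.90) and Blk (0.89), with r in brackets. Of these, 6 are in the B cell list. The genes of a mouse share its library and depth, and these correlations describe the mice measured.

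**Figure D5:**
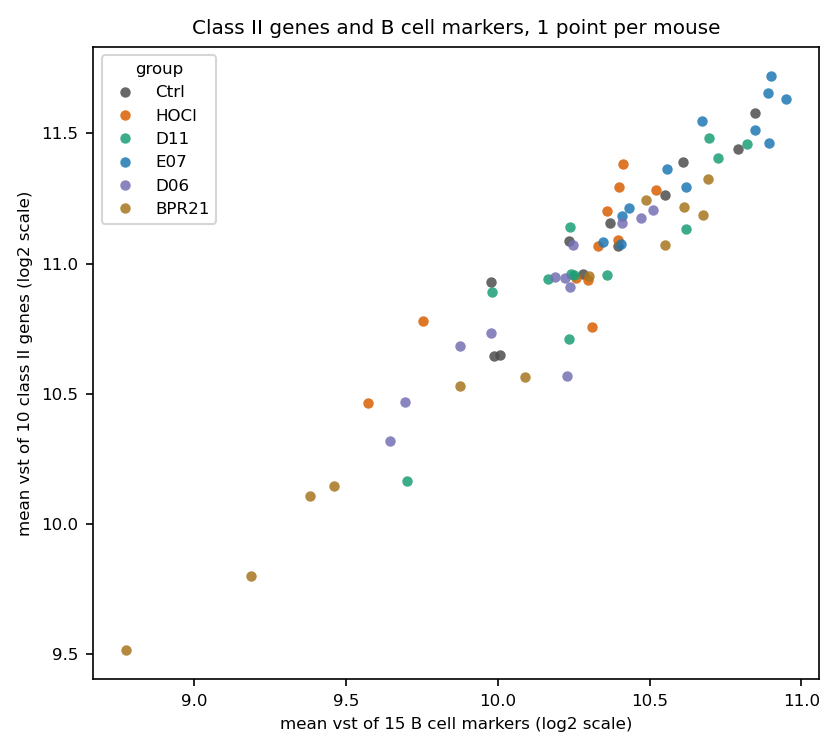
Mean vst value of the 10 class II genes against that of the 15 B cell markers, both on the log2 scale, 1 point per mouse and 1 colour per group. Points run along 1 line in all groups, with 4 BPR21 mice at its low end, the other BPR21 mice further up and E07 mice in its upper part.

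D06 and BPR21 mice were compared with E07 mice in the same way, and both comparisons share the E07 mice with those above. In D06 against E07 mice, 9 of 10 members fell, where 9.76% of all genes were called with 1.34% lower and 8.42% higher. Differences were -0.72 to -0.28 (median -0.54), among them H2-Aa (log2 difference -0.72, SE 0.170, FDR 0.00327), which came to -0.60 without D06 mouse 8, and 13 of 15 B cell markers fell (median -0.54). In BPR21 against E07 mice, 10 of 10 members fell, where 7.26% of all genes were called with 1.57% lower and 5.69% higher. Differences were -0.93 to -0.53 (median -0.78), largest in H2-Ab1 (log2 difference -0.93, SE 0.209, FDR 0.0173), and 12 of 15 B cell markers fell (median -0.64). Without the 5 libraries that stood apart, the counts were 9 in D06 and 7 in BPR21 against E07 mice, where 933 and 205 of all genes were called against 1026 and 763 with them, and without D06 mouse 8 the count for D06 was 9. On the total-count scale the shift of all genes was -0.59 and -0.41 (7485 lower and 305 higher, and 4659 lower and 152 higher), and the members stood at a median of -0.59 and -0.85 relative to it.

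Between the 2 anti-galectin-3 mAbs, 6 members were called higher in E07 than in D11 mice: H2-Aa, H2-Ab1, H2-Eb1, Cd74, H2-DMb2 and Ciita. Of all genes, 4.57% were called with 0.295% higher and 4.27% lower. Their FDR lay at 0.0406 to 0.0477, close to the limit of 0.05, and their log2 differences at 0.40 to 0.47. All 10 members were positive (median 0.41), and 3 of 15 B cell markers rose (median 0.32). The count was 0 with all 6 groups in 1 fit, where 0 of all genes were called against 480 in the reported fit. It was 10 on the total-count scale (all genes shifted by 0.39, 4512 higher and 152 lower), 3 with edgeR on all genes with at least 1 count (1074 genes called), and 2 without the 5 libraries that stood apart (278 genes called). Single mice decided it as well: the count was 0 without D11 mouse 3, 4, 5, 6, 9 or 12 or without E07 mouse 3, 4, 5, 7, 8, 9, 10 or 11, it was 1 without D11 mouse 11, and it was 2 without D11 mouse 10.

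The remaining 10 comparisons called 0 members with limma. In D11 against HOCl mice 0.0571% of all genes were called (0.0285% higher, 0.0285% lower), and member differences were -0.11 to 0.17 (median -0.049), with an unadjusted p under 0.05 in 0 with limma, 0 with edgeR and 0 with DESeq2. In D06 against HOCl mice 0.133% of all genes were called (0.0761% higher, 0.0571% lower), and member differences were -0.39 to 0.020 (median -0.18), with an unadjusted p under 0.05 in 1 with limma, 2 with edgeR and 3 with DESeq2. For BPR21 against HOCl mice 0.638% of all genes were called (0.238% higher, 0.4% lower), and member differences were -0.56 to -0.11 (median -0.40), with an unadjusted p under 0.05 in 5 with limma, 3 with edgeR and 4 with DESeq2. All 10 members were negative in the last of these, with wide errors (H2-DMa log2 difference -0.48, SE 0.168, FDR 0.187). The comparisons with Ctrl mice follow. For D11 against Ctrl mice 0.0761% of all genes were called (0.0761% higher, 0% lower), and member differences were -0.17 to 0.085 (median -0.10), with an unadjusted p under 0.05 in 0 with limma, 0 with edgeR and 0 with DESeq2. For E07 against Ctrl mice 0.00952% of all genes were called (0.00952% higher, 0% lower), and member differences were 0.048 to 0.38 (median 0.32), with an unadjusted p under 0.05 in 8 with limma, 7 with edgeR and 7 with DESeq2. For D06 against Ctrl mice 7.88% of all genes were called (7.27% higher, 0.609% lower), and member differences were -0.37 to -0.13 (median -0.27), with an unadjusted p under 0.05 in 5 with limma, 5 with edgeR and 5 with DESeq2. All 10 members were negative there, and edgeR called 1 of them. For BPR21 against Ctrl mice 0.504% of all genes were called (0.152% higher, 0.352% lower), and member differences were -0.65 to -0.20 (median -0.49), with an unadjusted p under 0.05 in 8 with limma, 3 with edgeR and 6 with DESeq2. DESeq2 called 1. H2-DMa came nearest to the limit with limma (log2 difference -0.65, SE 0.167, FDR 0.0628), with 12 of 12 BPR21 mice under the Ctrl median. The comparisons share Ctrl and HOCl mice.

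Among the other HOCl-induced groups no member was called either. For D06 against D11 mice 0% of all genes were called (0% higher, 0% lower), and member differences were -0.30 to -0.055 (median -0.15), with an unadjusted p under 0.05 in 1 with limma, 1 with edgeR and 1 with DESeq2. For BPR21 against D11 mice 0% of all genes were called (0% higher, 0% lower), and member differences were -0.54 to -0.22 (median -0.39), with an unadjusted p under 0.05 in 3 with limma, 1 with edgeR and 1 with DESeq2. For BPR21 against D06 mice 0.0571% of all genes were called (0.00952% higher, 0.0476% lower), and member differences were -0.42 to -0.024 (median -0.21), with an unadjusted p under 0.05 in 1 with limma, 0 with edgeR and 1 with DESeq2. BPR21 mice 7, 10, 11 and 12 had the 4 lowest member means of all 70 mice (10.11, 10.15, 9.51 and 9.80). Neutrophil markers in mice 7 and 11 had means of 14.30 and 14.36, against 11.98 to 12.52 in the other BPR21 mice. The part of these markers in the member levels was not tested.

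Partners of the class II pathway were taken from a list of 22 genes, all in the vst table. In HOCl against Ctrl mice 3 rose and 0 fell: the cathepsin gene Ctsb (log2 difference 1.18, SE 0.231, FDR 0.00434), the ubiquitin ligase gene Marchf8 (log2 difference 1.09, SE 0.211, FDR 0.00433) and the protease gene Lgmn (log2 difference 0.58, SE 0.126, FDR 0.00688). In E07 against HOCl mice 2 rose, H2-Ea, the alpha chain of I-E (log2 difference 0.60, SE 0.127, FDR 0.00189), and the costimulatory receptor gene Cd40 (log2 difference 0.39, SE 0.0893, FDR 0.00368), while 3 fell, Ctsb (log2 difference -1.48, SE 0.222, FDR 0.000117), Marchf8 (log2 difference -1.15, SE 0.206, FDR 0.000408) and Lgmn (log2 difference -0.82, SE 0.133, FDR 0.000198). In D06 against E07 mice 3 rose and 3 fell, and in BPR21 against E07 mice 2 rose and 6 fell, among them Rfx5, a subunit of the X box factor (log2 difference -0.44, SE 0.114, FDR 0.0200), and Ifi30, the lysosomal thiol reductase (log2 difference -0.53, SE 0.162, FDR 0.0373). E07 against D11 mice gave 1 rise, H2-Eb2 (0.40), and 1 fall, Lgmn (-0.49). D06 against Ctrl mice gave 2 rises, Ctsb (0.90) and Marchf8 (1.17). The cathepsin gene Ctss fell in BPR21 against HOCl (-0.43) and against Ctrl mice (-0.59), the 1 call in each. The other 7 comparisons gave 0 with limma, edgeR or DESeq2, with an unadjusted p under 0.05 in at most 7 of the 22 in any of them with limma. The rise of H2-Eb2 was called by neither edgeR nor DESeq2. Of the 7 genes of interferon gamma signalling, the cytokine route that induces Ciita, 0 passed in any of the 15 comparisons with limma, where at most 2 had an unadjusted p under 0.05, and edgeR and DESeq2 called 1 higher in D06 against E07 mice. In E07 against HOCl mice their differences had a median of -0.080.

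Markers of red cell precursors, a large share of the RNA, took 2.78 to 8.39% (median 5.82%) in Ctrl, 6.59 to 13.7% (median 9.46%) in HOCl, 4.30 to 10.0% (median 7.00%) in D11, 3.94 to 7.63% (median 5.48%) in E07, 5.85 to 14.0% (median 7.54%) in D06 and 5.39 to 9.89% (median 7.22%) in BPR21 mice, with Alas2 the most abundant. Of the 10, 9 rose and 0 fell in HOCl against Ctrl mice (median 1.29), 0 rose and 9 fell in E07 against HOCl mice (median -1.35), 9 rose and 0 fell in D06 against E07 and 8 rose and 0 fell in BPR21 against E07 mice. In D06 against Ctrl mice 10 rose and 0 fell, and in E07 against D11 mice 0 rose and 3 fell. In the comparisons of E07 with HOCl, D06, BPR21 and D11 mice the calls in these markers and in the members had opposite signs, and their part in the result was not tested. Platelet markers, 4 of 5 in the vst table with Pf4 the most abundant, had calls of the same sign as the erythroid ones in these 6 comparisons, and of the 4, 4 rose and 0 fell in HOCl against Ctrl mice and 0 rose and 4 fell in E07 against HOCl mice.

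Markers of the other cells that carry class II took smaller shares. Monocyte markers took 0.0419 to 0.131% (median 0.0965%) in Ctrl, 0.0371 to 0.0830% (median 0.0584%) in HOCl, 0.0335 to 0.0794% (median 0.0571%) in D11, 0.0594 to 0.0929% (median 0.0747%) in E07, 0.0293 to 0.0659% (median 0.0503%) in D06 and 0.0176 to 0.0811% (median 0.0506%) in BPR21 mice, with Ccr2 the most abundant and 0 of 10 at a median count of 0. In E07 against HOCl mice 0 rose and 2 fell, Csf1r (-0.50) and Cd14 (-0.59), and in BPR21 mice 0 rose and 4 fell against HOCl, 0 rose and 4 fell against Ctrl and 0 rose and 4 fell against E07 mice. In D06 mice 0 rose and 1 fell against HOCl, 0 rose and 1 fell against Ctrl and 1 rose and 1 fell against E07 mice. Dendritic cell markers took 0.00268 to 0.00779% (median 0.00567%) in Ctrl, 0.00155 to 0.00544% (median 0.00375%) in HOCl, 0.00257 to 0.00544% (median 0.00370%) in D11, 0.00329 to 0.00698% (median 0.00425%) in E07, 0.00160 to 0.00426% (median 0.00345%) in D06 and 0.00165 to 0.00485% (median 0.00355%) in BPR21 mice, with Itgax the most abundant and Xcr1 at a median count of 0, and 5 of the 8 were in the vst table. None of these 5 passed in E07 against HOCl mice with limma, edgeR or DESeq2 (unadjusted p under 0.05 in 2 with limma, 0 with edgeR, 1 with DESeq2), and Cd209a fell in BPR21 against Ctrl mice (-0.65). Neutrophil markers, with S100a9 the most abundant, took medians of 0.560% in Ctrl, 0.465% in HOCl and 0.513% in E07 mice, with 0.444% in D11, 0.378% in D06 and 0.387% in BPR21 mice. Of the 6, 0 passed in E07 against HOCl mice with limma or edgeR and 1 with DESeq2 (unadjusted p under 0.05 in 1 with limma, 3 with edgeR, 3 with DESeq2), and Retnlg rose in D06 against Ctrl mice (0.85). T cell (9 genes, Cd3g the most abundant) and NK cell markers (5 genes, Gzma the most abundant) gave 0 calls in E07 against HOCl mice with limma, edgeR or DESeq2. An unadjusted p under 0.05 was seen there for T cell markers in 2 with limma, 2 with edgeR, 2 with DESeq2, and for NK cell markers in 0 with limma, 2 with edgeR, 1 with DESeq2. The T cell gene Il7r rose in BPR21 against E07 mice (0.46), where the NK cell genes Gzma (-0.43) and Ncr1 (-0.49) fell. Both fell against Ctrl mice too (-0.56 and -0.62), and Il7r rose in BPR21 against HOCl (0.55) and D06 mice (0.58). Of 4 eosinophil markers, Ccr3 rose against HOCl mice in D06 (1.17), D11 (0.90) and E07 mice (0.67), in the first 2 of which no member was called, and against Ctrl mice in D06 (1.23) and D11 mice (0.95). Il5ra rose in E07 against HOCl mice (0.44), and Prg2 (0.77) and Siglecf (0.70) in D06 against Ctrl mice. In BPR21 against E07 mice, where all members fell, Ccr3 (-0.71) and Il5ra (-0.51) fell as well. Epx, a further marker, had a median count of 0.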

How the data were processed

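The authors trimmed adaptors with Cutadapt, aligned reads to mm39 with STAR and deposited raw counts per gene made with featureCounts, for 71 mice. The deposited vst values, on a log2-like scale, come from the vst function of DESeq2 v1.30.0, after which the authors removed non-coding and low genes, for 70 mice. Versions of the trimming, alignment and counting tools and the annotation are not given in the sources used here. Pairs of groups were tested with limma 3.58.1 in R 4.3.3 on the vst values of the 2 groups, over all 10508 genes, and a gene was called when its Benjamini-Hochberg FDR did not exceed 0.05 and its fold size reached 1.3. Alternatives were edgeR 4.0.16 and DESeq2 1.42.0 on counts, other filters, total-count scaling (log2 of CPM plus 1), all 6 groups in 1 fit, a replicate block, no fold threshold and each mouse left out. Remaining steps used Python 3.11.15, numpy 2.4.6, pandas 2.3.3 and matplotlib 3.10.9. Named genes were the members, the lists, and the 9 genes with the highest Pearson r with the members' mean z-score, besides H2-K1 and the promoters that hold both boxes. A further gene, counted in the totals, is not reported here. The members and lists were chosen with earlier results of these data known. Promoters come from GENCODE vM39 on GRCm39. The fits were run on simulated data with independent genes and changes larger than any member difference in the reported fits. How they perform at the sizes reported here was not tested.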

Additional observations from a re-analysis of the deposited data

How the results depend on the processing

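The member counts of 15 comparisons were recomputed in 9 settings and with each mouse left out. D06 against E07 (9 to 10) and BPR21 against E07 mice (7 to 10) stayed within 1.5 times of the reported count in all of them. Over the settings, all-gene calls ran from 933 to 7790 in the first and from 205 to 4811 in the second. The reported fits called 1026 and 763. The counts of 10 under total-count scaling, with 7790 and 4811 genes called, therefore say little about stability. The following counts moved further, and the cause was not tested. A lone number in brackets gives the calls over all genes, which in the reported fits were 521 in HOCl against Ctrl, 829 in E07 against HOCl, 828 in D06 against Ctrl, 53 in BPR21 against Ctrl, 67 in BPR21 against HOCl and 480 in E07 against D11 mice. Total-count scaling called 8 in HOCl against Ctrl (5459), 10 in E07 against HOCl (6882), 10 in D06 against Ctrl (7039), 2 in BPR21 against Ctrl (677) and 10 in E07 against D11 mice (4664). In 1 fit of all 6 groups there were 1 in E07 against HOCl (681), 1 in BPR21 against HOCl (148), 2 in BPR21 against Ctrl (406) and 0 in E07 against D11 mice (0). EdgeR called 1 in D06 against Ctrl mice (1004), 1 without a filter (2231), where E07 against D11 mice had 3 (1074), and DESeq2 called 1 in BPR21 against Ctrl mice (521). Leaving out the 5 libraries that stood apart, a choice made after seeing the data, gave 2 in E07 against D11 mice (278). With each mouse left out, counts were 0 to 1 in D06 against Ctrl mice (1 without Ctrl mouse 12 or D06 mouse 9), 0 to 1 in BPR21 against Ctrl mice (1 without Ctrl mouse 12 or BPR21 mouse 1, 2, 3 or 4), and 0 to 8 in E07 against D11 mice.

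Same-numbered mice are different animals, and no comparison had an r over 0.1 in every pair of same-numbered mice. Their mean r ran from 0.00041 in BPR21 against D06 to 0.15 in E07 against Ctrl mice. Differently numbered mice had 0.0014 and -0.0097 there. This check cannot tell whether mice of 1 number shared a block, and the reported fits use none. The replicate block gave 2 members in BPR21 against Ctrl mice where the reported count is 0, with 534 of all genes called against 53. It also gave 115 of all genes against 8 in D11 against Ctrl mice, and 85 against 521 in HOCl against Ctrl mice.

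Most of the 150 member differences were not called in the reported fits, so a kept call mostly means that a difference stayed uncalled. In 1 fit of all 6 groups the called members went from 4 to 1 in E07 against HOCl and from 6 to 0 in E07 against D11 mice. They stayed at 9 in D06 against E07 and at 10 in BPR21 against E07 mice. Of the 150 member differences, 138 kept their sign and their call in 1 fit of all 6 groups (9 lost the call, 3 gained it), 143 with edgeR, 144 with DESeq2 and 107 under total-count scaling (31 gained the call, 12 turned sign). The last count stands on a scale where all genes shift together, so it does not measure how stable the members are. No called difference of a member changed its sign. Differences that were not called did so, close to 0 in most cases. Under total-count scaling the sign turned for the median of the members 0.052, Cd74 0.010, H2-DMb2 0.066, H2-Eb1 0.032, H2-Ab1 0.039 in D11 against HOCl, Ciita -0.46, H2-DMb1 -0.45 in HOCl against Ctrl, H2-Oa -0.050 in D06 against HOCl, H2-Ob -0.29 in D11 against Ctrl, Ciita 0.12, H2-Aa 0.023, H2-DMb2 0.020, H2-Ob 0.084 in BPR21 against D06. That scaling moved all genes together, by a median of 0.094, -0.47, -0.089, -0.36 and 0.17 in these comparisons, in the order given. Relative to that shift, each of the listed values kept the sign of the reported fit. In edgeR with the filter of 10 counts in 11 mice the sign turned for Ciita -0.0013, H2-Eb1 0.0092, H2-DMb1 -0.058 in HOCl against Ctrl, H2-Oa -0.11 in D06 against HOCl, Ciita 0.084 in BPR21 against D06. With the replicate block the sign turned for Cd74 0.031, H2-Eb1 0.032, H2-Ab1 0.00054 in HOCl against Ctrl. In DESeq2 the sign turned for Cd74 0.00088, H2-Eb1 0.041, H2-DMb1 -0.025 in HOCl against Ctrl, H2-Oa -0.10 in D06 against HOCl, Ciita 0.066 in BPR21 against D06. With edgeR the sign turned for H2-Eb1 0.024, H2-DMb1 -0.042 in HOCl against Ctrl, H2-Oa -0.10 in D06 against HOCl, Ciita 0.075 in BPR21 against D06. In edgeR without a filter the sign turned for H2-Eb1 0.012, H2-DMb1 -0.057 in HOCl against Ctrl, H2-Oa -0.11 in D06 against HOCl, Ciita 0.089 in BPR21 against D06. With the 5 libraries left out the sign turned for H2-Ob 0.018 in D06 against HOCl, H2-Ob 0.022 in BPR21 against HOCl, H2-DMb1 0.028 in D06 against D11, Ciita 0.13, H2-Aa 0.024, H2-Ob 0.0044 in BPR21 against D06. With each mouse left out, ranges that crossed 0 were the median of the members -0.10 to 0.042, H2-Aa -0.0018 to 0.14, H2-DMb2 -0.10 to 0.049, H2-Eb1 -0.15 to 0.019, H2-Ab1 -0.12 to 0.035 in D11 against HOCl, Ciita -0.044 to 0.10, H2-Eb1 -0.10 to 0.041, H2-DMb1 -0.088 to 0.088 in HOCl against Ctrl, H2-Oa -0.079 to 0.079, H2-Ob -0.087 to 0.039 in D06 against HOCl, H2-Oa -0.11 to 0.039, H2-Aa -0.11 to 0.030, H2-DMb1 -0.17 to 0.0048 in D11 against Ctrl, H2-DMb1 -0.13 to 0.016 in D06 against D11, Ciita -0.091 to 0.077, H2-Ob -0.15 to 0.0087 in BPR21 against D06. At totals of 11932855 to 15948972 counts, Cd80 and H2-Eb2 of the partners had 0 counts in at least 1 mouse. The part of depth in this was not tested.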
